A study of Macaca mulatta with 20 samples.

Results

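The listed genes of the smooth muscle contractile apparatus, MYH11, TAGLN, ACTA2, ACTG2, CNN1, LMOD1, DES, MYLK, SMTN and CALD1, were read in RNA of 5 rhesus macaque sources on 2 types of Affymetrix array. A probe set, the group of short probes that gives 1 value for a transcript, was taken when the annotation of its array gave it a single gene symbol and that symbol was one of the 10 listed. On the rhesus GeneChips 22 of 52865 probe sets met this rule and covered 7 genes, since no probe set there carried ACTA2, DES or MYLK as its only symbol. On the human GeneChips 39 of 54675 probe sets met it and covered all 10 genes. Every one of these probe sets was kept, whatever its level.

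The sources were testis, thymus, pancreas, cerebral cortex and immortalized fibroblasts, all without a stated treatment. Total RNA of each source was extracted with Trizol, split into aliquots and labelled with biotin from 5 ug per array. Each source was then measured on 2 rhesus GeneChips (replicates 1 and 2) and 2 human GeneChips (replicates 3 and 4), 20 arrays in all. The labels call these arrays technical replicates and give neither the animals behind a source nor their age, so p-values measured the spread between arrays of the same RNA and not between animals. The fibroblasts were cultured immortalized cells, while the other 4 sources were whole tissues that mix many cell types. The human GeneChips carry probes designed on human transcripts, so that a rhesus transcript can differ from its probe in some bases.

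Smooth muscle shortens when myosin heads pull on actin filaments. Calcium bound to calmodulin switches on myosin light chain kinase, which phosphorylates the regulatory light chain of myosin and lets the heads cycle, and a phosphatase reverses this step. Many genes of this apparatus are driven by serum response factor with its partners myocardin and the MRTF proteins. In the testis such cells lie in the walls of blood vessels and, as peritubular myoid cells, around the seminiferous tubules. Part of the same gene set, ACTA2, TAGLN and CALD1 among them, is also known from cultured fibroblasts, where actin bundles form stress fibres.

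Values are on the log2 scale of the deposited tables, where 1 unit is a doubling. Each array type carries 27 control probe sets for transcripts that were taken here as not added to the samples. Their means ran from 2.13 to 3.12 on the rhesus and from 2.14 to 3.12 on the human GeneChips. A level in this range is called the floor here. Where the lower of a pair of sources is at the floor, their difference depends on the floor and is not a measure of the true fold. For called probe sets of the contractile genes the difference from the highest of these control means, 3.12, is then given as the least difference ("at least"). The 2 arrays of a source correlated over all probe sets with r from 0.986 in pancreas to 0.997 in testis on the rhesus GeneChips, and from 0.987 to 0.995 on the human GeneChips. Pancreas RNA stood apart, with a typical SD between its 2 arrays of 0.281 on the rhesus GeneChips against 0.137 to 0.170 for the other sources. On the rhesus GeneChips its actin control gave a level 4.58 higher at the 3′ end than at the 5′ end, against 2.66 in testis and 2.65 in fibroblasts, but on the human GeneChips 2.40 against 2.47 and 2.29. The gapdh control gave 2.77 in pancreas against 1.51 and 1.97 on the rhesus GeneChips, and 1.31 against 0.368 and 0.495 on the human GeneChips. Markers of the labelled tissues were where the labels put them, as all 4 neural and glial markers were highest in cortex, all 4 exocrine markers in pancreas and the measured T cell markers in thymus on both array types. Of the T cell markers, CD3E, read on the human GeneChips, was at the floor even in thymus, at a mean of 2.75.

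Differences between sources were tested with limma over all probe sets of an array type other than controls. A difference is said to be called, or a level higher or lower, where the Benjamini-Hochberg adjusted p was below 0.05 and the log2 difference was at least 1 in size. Testis had higher MYH11, LMOD1 and MYLK than fibroblasts, while fibroblasts had higher TAGLN, CALD1, SMTN and, on the rhesus GeneChips, CNN1. No gene had probe sets called in both directions on either array type. In a bulk sample, fewer cells of a type and less RNA per cell cannot be told apart.

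**Figure D1:**
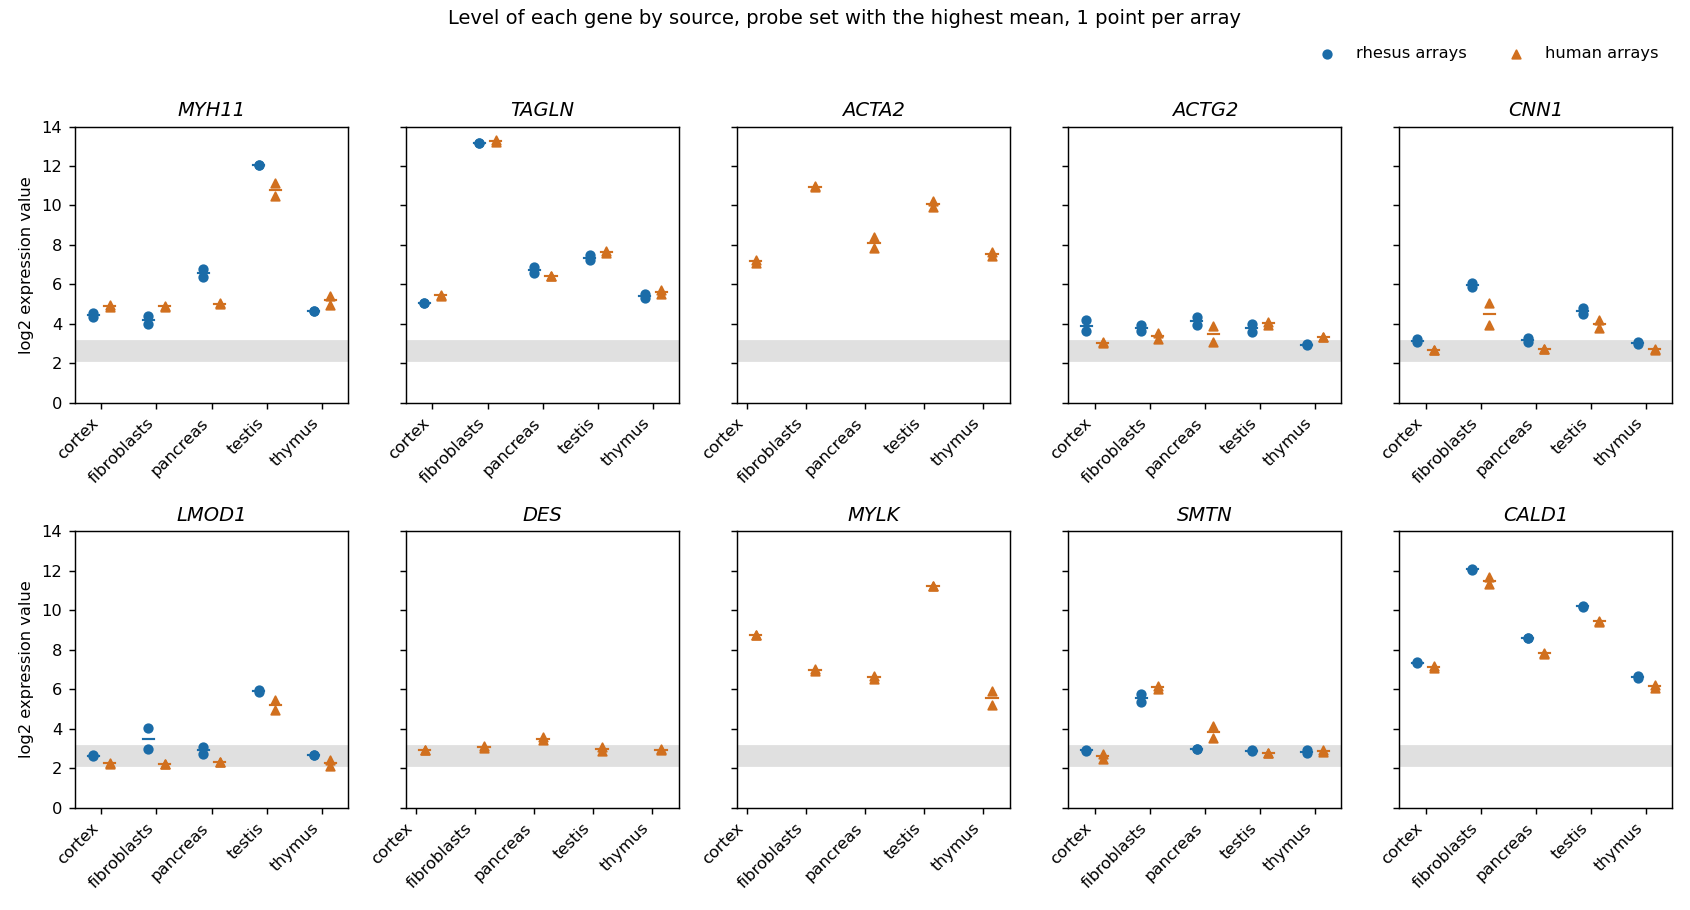
Level (log2) of the brightest probe set of each gene in the 5 sources, for the rhesus and the human GeneChips. Points are single arrays (circles rhesus, triangles human) and short bars are the means of 2 arrays. The grey band spans the means of the 27 controls for transcripts taken as not added. MYH11 stands at 12.03 and 12.07 in testis on the rhesus GeneChips and TAGLN at 13.17 and 13.19 in fibroblasts, while ACTG2 and DES stay near the band in every source.

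MYH11 encodes the heavy chain of smooth muscle myosin, the motor that defines the mature tissue. Its rhesus probe set MmugDNA.33337.1.S1_s_at read 12.03 and 12.07 in testis, 6.80 and 6.35 in pancreas, 4.67 and 4.67 in thymus, 4.54 and 4.34 in cortex, and 3.99 and 4.42 in fibroblasts. Both testis arrays were far above every other array, and the 4 remaining sources did not reach 7. Testis exceeded fibroblasts by 7.84 ± 0.19 (SE), 229-fold on this scale, with a limma adjusted p of 4.07e-07. It exceeded pancreas, the next source, by 5.47, and pancreas in turn exceeded fibroblasts, since fibroblasts minus pancreas was -2.37 (limma adjusted p = 8.43e-05). Thymus, cortex and fibroblasts followed without a called difference between neighbours.

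The other MYH11 probe sets of the rhesus GeneChips gave the same leading source except for one. MmugDNA.33337.1.S1_at read 11.02 and 11.06 in testis against 2.97 and 2.98 in fibroblasts, a fitted difference of 8.06 ± 0.28 with fibroblasts at the floor, which is at least 7.92. MmugDNA.15137.1.S1_at read 8.75 and 8.78 in testis and lay between 2.30 and 2.58 on the other 8 arrays, a difference of at least 5.65. MmugDNA.33340.1.S1_at did not follow them, as testis at 5.03 and 5.42 overlapped fibroblasts at 5.02 and 5.49. On that probe set pancreas was highest, at 7.22 and 6.92, and exceeded testis by 1.84 (limma adjusted p = 0.000944). The RNA of pancreas is the one whose controls differed most between the 3′ and 5′ ends on the rhesus GeneChips, and the part of this in the MYH11 values was not tested.

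The brightest MYH11 probe set of the human GeneChips, 201497_x_at, read 10.47 and 11.14 in testis and 4.85 to 5.41 on the other 8 arrays. The suffix x marks a probe set whose probes can also match other transcripts, and the suffix s one shared by several transcripts. Testis exceeded fibroblasts by 5.93 ± 0.24, 60.8-fold, with a limma adjusted p of 1.41e-05, and no neighbours among the other 4 sources differed by the call rule. A further 3 of the 7 human probe sets were called higher in testis, with fitted differences from 2.40 to 3.80. Fibroblasts were at the floor on 2 of these, 201496_x_at and 228133_s_at, whose differences were at least 3.24 and 2.27. The last 3 had no called difference, and their means in testis were between 2.06 and 2.90, no higher than the floor. One of these, 201495_x_at, had a difference of 0.59 with a limma adjusted p of 0.0101, below the size needed for a call. On 207961_x_at the 2 testis arrays were themselves 8.24 and 7.16, a wide pair beside 3.92 and 4.51 in fibroblasts, though the 2 sources did not overlap. Fibroblasts minus pancreas was called on 3 of the 4 rhesus probe sets, at -2.37, -2.17 and -1.81, and on 1 of the 7 human ones, 207961_x_at, at -1.67 (limma adjusted p = 0.0193). On 201497_x_at it was -0.14 (limma adjusted p = 0.672), and on 228134_at it was -0.91 (limma adjusted p = 0.00128), under the size needed for a call.

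MYLK encodes myosin light chain kinase, the enzyme that starts contraction, and was read on the human GeneChips. Probe set 202555_s_at read 11.26 and 11.25 in testis, 8.78 and 8.76 in cortex, 6.95 and 7.06 in fibroblasts, 6.53 and 6.69 in pancreas, and 5.19 and 5.91 in thymus. Testis was thus highest and cortex second, with no overlap between testis, cortex and the rest. Testis exceeded fibroblasts by 4.25 ± 0.22, 19.0-fold, with a limma adjusted p of 3.77e-05. Testis exceeded cortex by 2.49, and fibroblasts minus cortex was -1.76, both called by limma. Fibroblasts and pancreas did not differ by the call rule, and thymus was below both.

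A second MYLK probe set, 224823_at, gave nearly the same picture. It read 10.08 and 9.93 in testis, 7.84 and 7.96 in cortex, 6.06 and 5.64 in fibroblasts, 5.97 and 6.14 in pancreas, and 4.38 and 4.44 in thymus. Testis minus fibroblasts was 4.15 ± 0.14 with a limma adjusted p of 7.88e-06, so the 2 probe sets differed in this by less than either standard error. The other 3 MYLK probe sets lay at the floor in all sources, with means from 2.13 to 2.96 and differences between -0.05 and -0.03.

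LMOD1, leiomodin 1, starts the growth of actin filaments in smooth muscle. On the rhesus GeneChips MmugDNA.14438.1.S1_at read 5.85 and 5.95 in testis and 4.02 and 2.99 in fibroblasts, and the other 3 sources lay between 2.64 and 3.06. Testis exceeded fibroblasts by 2.40 ± 0.31 (limma adjusted p = 0.00087), and fibroblasts had the widest pair of arrays. MmuSTS.3088.1.S1_at read 4.47 and 5.09 in testis against 3.35 and 3.64 in fibroblasts, a difference of 1.29 ± 0.23. This second difference passed the size needed for a call only narrowly, and it was 0.98 without testis replicate 2, 0.87 after quantile normalization and 0.59 after subtraction of the spiked controls. On the human GeneChips 203766_s_at read 4.95 and 5.46 in testis and 2.14 to 2.40 on the other 8 arrays, with testis 2.97 ± 0.17 above fibroblasts in the fit (limma adjusted p = 5.95e-05) and at least 2.09 above the floor. The other human probe set, 211562_s_at, stayed at the floor with means from 2.68 to 2.87.

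TAGLN encodes transgelin, or SM22, an actin-bundling protein of smooth muscle and of cultured fibroblasts. The rhesus probe set MmugDNA.30842.1.S1_s_at read 13.17 and 13.19 in fibroblasts, 7.47 and 7.22 in testis, 6.56 and 6.86 in pancreas, 5.31 and 5.53 in thymus, and 5.05 and 5.05 in cortex. Fibroblasts were far above every tissue. Testis minus fibroblasts was -5.84 ± 0.13, 57.1-fold, with a limma adjusted p of 2.87e-07. Testis was next and exceeded cortex by 2.29 and thymus by 1.93, both called, but exceeded pancreas by 0.64, under the size needed for a call. The second rhesus probe set, Mmu.15501.1.S1_s_at, had fibroblasts at 12.34 and 12.40 and testis at 6.78 and 6.82, a difference of -5.57 ± 0.26.

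On 2 of the 3 human probe sets of TAGLN the order of the 5 sources was that of the rhesus GeneChips. Probe set 205547_s_at read 13.20 and 13.34 in fibroblasts, 7.69 and 7.59 in testis, 6.41 and 6.45 in pancreas, 5.71 and 5.53 in thymus, and 5.43 and 5.48 in cortex. Testis minus fibroblasts was -5.63 ± 0.075 with a limma adjusted p of 1.99e-07, and testis exceeded pancreas by 1.21, here a called difference. On 1555724_s_at fibroblasts read 11.93 and 11.99 and testis 5.38 and 5.68, a difference of -6.43 ± 0.29. The third probe set, 226523_at, was dim, with 3.83 and 4.96 in fibroblasts and 2.68 on both testis arrays, and its order was fibroblasts, pancreas, thymus, testis and cortex. Fibroblasts lay at least 1.27 above the floor, and the fitted difference of -1.71 had a limma adjusted p of 0.0166, which became 0.0691 without testis replicate 3, 0.0723 without testis replicate 4 and 0.121 when testis and fibroblast arrays were fitted alone.

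CALD1 encodes caldesmon, a calmodulin-binding protein on actin filaments with a long smooth muscle form and a shorter form of other cells. These arrays did not separate the 2 forms here, because the annotation used gives the gene of a probe set and not its exon. The brightest rhesus probe set, MmugDNA.27788.1.S1_at, read 12.07 and 12.10 in fibroblasts, 10.19 and 10.23 in testis, 8.62 and 8.58 in pancreas, 7.32 and 7.36 in cortex, and 6.59 and 6.67 in thymus. All 5 sources were separate. Testis minus fibroblasts was -1.88 ± 0.043 (limma adjusted p = 3.39e-07), and testis lay above pancreas by 1.61, above cortex by 2.87 and above thymus by 3.58, all called. Cortex and thymus differed by 0.71, under the size needed for a call.

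Of the 6 rhesus CALD1 probe sets, 4 were called lower in testis, with differences from -2.08 to -1.46, and all 6 were highest in fibroblasts. The 2 without a call were MmugDNA.4165.1.S1_at, with 6.11 and 5.63 in fibroblasts against 5.69 and 5.71 in testis, and MmugDNA.3359.1.S1_at, with 5.01 and 5.65 against 4.49 and 4.85. The first pair of sources overlapped. On the second the difference of -0.66 became -1.03 after quantile normalization and -1.35 after subtraction of the spiked controls, both past the call rule.

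The brightest CALD1 probe set of the human GeneChips, 212077_at, read 11.68 and 11.32 in fibroblasts, 9.44 and 9.47 in testis, 7.81 and 7.86 in pancreas, 7.10 and 7.17 in cortex, and 6.23 and 6.06 in thymus. The order was that of the rhesus GeneChips, and testis minus fibroblasts was -2.05 ± 0.12 (limma adjusted p = 6.57e-05). Testis lay above pancreas by 1.61, above cortex by 2.32 and above thymus by 3.30, all called. Of the 11 human probe sets 5 were called lower in testis, from -2.05 to -1.10, and 7 were highest in fibroblasts. The smallest of the 5, on 205525_at, was -0.98 without testis replicate 4. Testis was highest on 2 dim probe sets, 243084_at and 214880_x_at, by 0.38 and 0.57 over fibroblasts, without a call. On 215199_at fibroblasts stood at a mean of 2.89 with an SD of 0.75 and testis at 2.30, a difference of -0.58 that was -1.11 without fibroblasts replicate 4.

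SMTN encodes smoothelin, a protein of actin filaments in contractile smooth muscle. The rhesus probe set MmugDNA.36432.1.S1_at had a mean of 6.05 ± 0.082 (SD, n = 2) in fibroblasts and read 2.46 and 2.43 in testis, a difference of -3.61 ± 0.42 (limma adjusted p = 0.000521). The 2 pancreas arrays of that probe set were 4.14 and 2.68, while cortex and thymus were at the floor. MmugDNA.24794.1.S1_s_at read 5.76 and 5.36 in fibroblasts and 2.91 and 2.89 in testis, a difference of -2.66 ± 0.12. MmugDNA.24794.1.S1_at had a difference of -2.07, and the fourth probe set was at the floor throughout. The human probe set 209427_at read 6.18 and 6.03 in fibroblasts, 3.54 and 4.12 in pancreas, and 2.76 and 2.76 in testis, a difference of -3.34 ± 0.19 (limma adjusted p = 5.65e-05). Pancreas was second on this probe set and testis lay 1.07 below it, also called. The probe set 207390_s_at had fibroblasts 2.65 above testis, and 1556030_at had no called difference. SMTN in testis was thus at the floor on every probe set of both array types, so these differences also hold the distance of fibroblasts from the floor. Fibroblasts lay at least 2.93, 2.44 and 1.13 above the floor on the 3 called rhesus probe sets, in the order given, and at least 2.98 and 1.90 above it on the human probe sets 209427_at and 207390_s_at.

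CNN1 encodes calponin 1, which binds actin and slows the myosin motor. Its rhesus probe set read 6.09 and 5.87 in fibroblasts, 4.80 and 4.51 in testis, and 2.98 to 3.27 in the other 3 sources. Fibroblasts exceeded testis and testis exceeded each remaining source, and testis minus fibroblasts was -1.32 ± 0.13 (limma adjusted p = 0.000244). On the human probe set, 203951_at, fibroblasts read 5.08 and 3.97 and overlapped testis at 3.77 and 4.21, and the other 6 arrays lay between 2.69 and 2.74. The difference of -0.53 ± 0.35 was not called, with a limma adjusted p of 0.292. It was 0.03 without fibroblasts replicate 3 and -1.09, past the call rule, without fibroblasts replicate 4.

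ACTA2 encodes the α-actin of vascular smooth muscle and was read on the human GeneChips. Probe set 200974_at read 10.93 and 10.96 in fibroblasts, 9.92 and 10.21 in testis, 7.83 and 8.41 in pancreas, 7.66 and 7.42 in thymus, and 7.25 and 7.07 in cortex. Fibroblasts and testis were the 2 high sources, and each of them exceeded the other 3. Fibroblasts lay above cortex, thymus and pancreas by 3.79, 3.41 and 2.83, and testis by 2.91, 2.53 and 1.95, all called. Testis minus fibroblasts was -0.88 ± 0.21 with a limma adjusted p of 0.0261, so the 2 sources did not overlap but the difference was under the size needed for a call. After subtraction of the spiked controls it was -1.45 and was called. The other ACTA2 probe sets, 215787_at and 243140_at, were at the floor with means from 2.36 to 3.07.

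ACTG2, the γ-actin of the smooth muscle of gut and other hollow organs, and DES, the muscle intermediate filament protein desmin, were near the floor in all 5 sources. The 3 rhesus ACTG2 probe sets had means from 2.28 to 4.15, and the largest difference between testis and fibroblasts was 0.40 (limma adjusted p = 0.0508). The brighter human probe set, 202274_at, read 3.93 and 4.11 in testis and 3.24 and 3.51 in fibroblasts, a difference of 0.64 ± 0.24 (limma adjusted p = 0.107). The testis arrays were the top 2 of the 10 on that probe set, with a pancreas array at 3.88 just below them. The 2 DES probe sets had means from 2.64 to 3.53, with the highest in thymus for 202222_s_at. No difference between testis and fibroblasts was detectable for either gene at these levels.

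**Figure D2:**
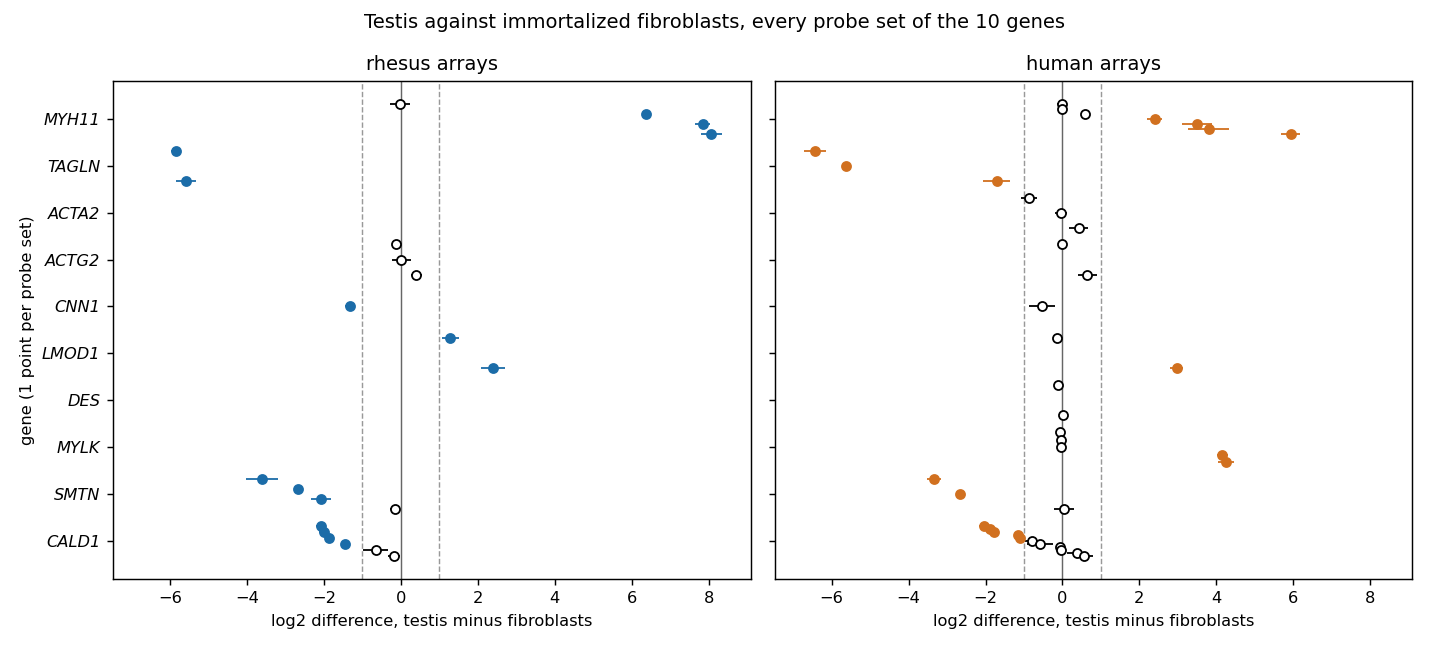
Difference of testis minus fibroblasts (log2) for every probe set of the 10 genes, rhesus and human GeneChips; each point is 1 probe set with its standard error, filled where the difference was called and open where it was not. MYH11, MYLK and LMOD1 hold the called points right of 0, up to 8.06 (at least 7.92, since fibroblasts were at the floor there), and TAGLN, CALD1, SMTN and CNN1 those left of 0, down to -6.43.

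Over all probe sets of the 10 genes, 5 of 22 on the rhesus GeneChips were higher in testis than in fibroblasts (22.7%), where 15.0% of all probe sets tested were. Lower in testis were 10 of 22 (45.5%), where 10.3% of all were. On the human GeneChips 7 of 39 were higher (17.9%), where 6.82% of all were, and 10 of 39 were lower (25.6%), where 6.34% of all were. The 5 higher rhesus calls came from 2 genes, 3 from MYH11 and 2 from LMOD1, and the count was 4 after quantile normalization, after subtraction of the spiked controls, with dim probe sets left out and without testis replicate 2, so nothing is read from this share. The 10 lower rhesus calls came from 4 genes, with 4 from CALD1, 3 from SMTN, 2 from TAGLN and 1 from CNN1. The 10 lower human calls came from 3 genes, with 5 from CALD1, 3 from TAGLN and 2 from SMTN. Probe sets of 1 gene are not independent, so none of these shares is read as a trait of the whole list. The median difference of the members was -0.42 on the rhesus and -0.038 on the human GeneChips, and that of all probe sets was -0.092 and -0.042. The called differences ran from 1.29 to 8.06 and from -5.84 to -1.32 on the rhesus GeneChips, and from 2.40 to 5.93 and from -6.43 to -1.10 on the human GeneChips, with 5 of the rhesus and 6 of the human ones against a source at the floor.

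The 22 human probe sets without a call included 3 with a limma adjusted p below 0.05, of MYH11, ACTA2 and CALD1, whose differences were 0.59, -0.88 and -0.80. The rhesus GeneChips had no such probe set, as its 7 uncalled ones had differences from -0.66 to 0.40 and adjusted p of 0.0508 or more in limma.

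The order of the 5 sources was read by testing each pair of neighbours in it. On the rhesus GeneChips 28 of 88 neighbouring pairs were called different (31.8%), where 13.1% were over all probe sets, and on the human GeneChips 30 of 156 (19.2%), where 6.89% were. Testis was highest and called above the second source on 5 rhesus probe sets (22.7%, against 3.33% of all) and on 7 human ones (17.9%, against 1.62%). Fibroblasts were highest and called above the second on 10 (45.5%, against 4.50% of all) and on 10 (25.6%, against 3.26%). One probe set was led by another source with a called gap, the rhesus MYH11 probe set highest in pancreas. At the low end of the order, cortex and thymus on the brightest probe sets of TAGLN, CNN1 and MYH11 did not differ by the call rule on either array type.

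**Figure D3:**
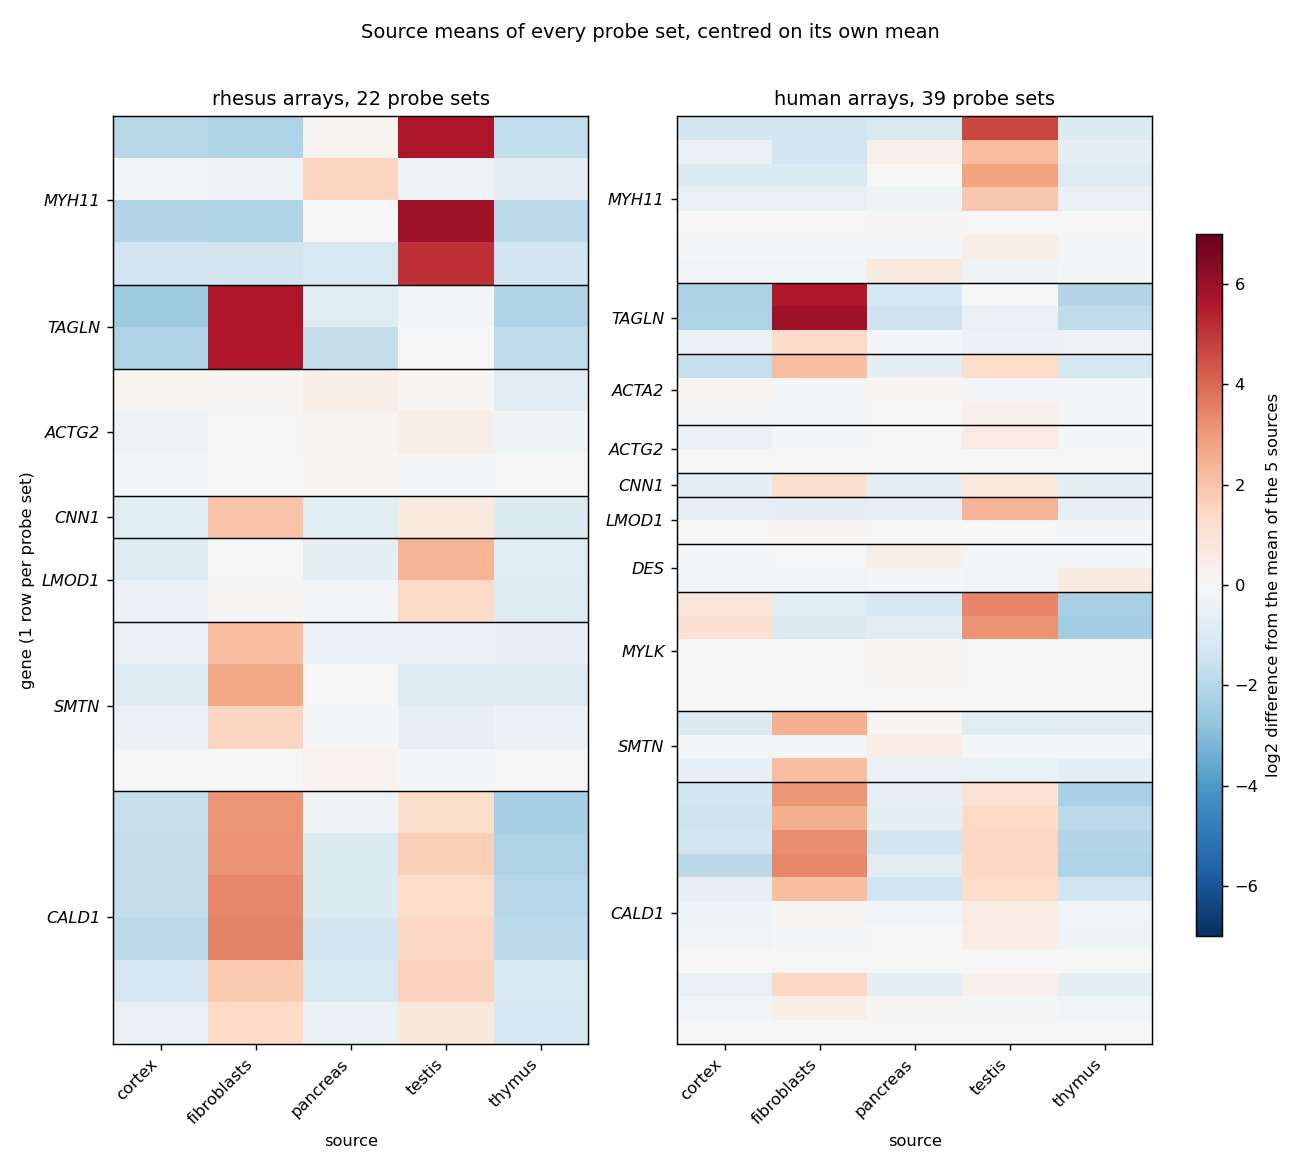
Mean level of each probe set in the 5 sources, each row centred on its own mean (log2, colour), with probe sets grouped by gene and split by array type. The rows of MYH11, MYLK and LMOD1 that leave the floor are high in testis except for 1 MYH11 row led by pancreas, and most rows of TAGLN, CALD1, SMTN and CNN1 are high in fibroblasts, while the rows at the floor are pale.

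The same source was highest for the brightest probe set of 6 of the 7 genes on both array types, and ACTG2, near the floor, was the exception. The full order of 5 sources was the same for 2 of them, TAGLN and CALD1. Values of the 2 tables were set side by side only, because it is not given whether they were normalized together. For MYH11 the difference on the brightest probe set was 7.84 on the rhesus and 5.93 on the human GeneChips, for TAGLN -5.84 and -5.63, and for CALD1 -1.88 and -2.05.

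Proteins that work on the same filaments were read from their brightest probe set. Over the brightest probe sets of all 14132 genes named on the rhesus GeneChips 33.8% were called between testis and fibroblasts, 2424 higher and 2352 lower in testis. Over the 19775 genes named on the human GeneChips 19.5% were, 1877 higher and 1983 lower. The counts of each list below stand beside these, and with so few genes in a list nothing particular to a list is read from them. Of 14 listed contractile partners 11 were measured on the rhesus GeneChips, where 1 was higher and 5 were lower in testis than in fibroblasts, and 12 on the human GeneChips, where 0 were higher and 7 were lower. Their median difference was -0.97 on the rhesus and -1.56 on the human GeneChips. The tropomyosins, which lie along actin, were lower on both types, with TPM1 at -3.45 and -3.80 and TPM2 at -2.60 and -2.82 on the rhesus and human GeneChips. MYL6, an essential light chain of myosin, was lower by the call rule too, at -1.10 and -1.40. MYL9, the regulatory light chain that MYLK phosphorylates, had a difference of -0.71 (limma adjusted p = 0.0609) on the rhesus GeneChips and was lower on the human ones at -1.71. SYNPO2, an actin-bundling protein also called myopodin, was called in opposite directions, higher in testis at 2.85 on the rhesus GeneChips and lower at -2.38 on the brightest human probe set. Among the 7 human SYNPO2 probe sets 4 were lower in testis and 1, 227662_at, was higher by 2.24.

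Of the 14 genes that carry the contraction signal, 12 were measured on the rhesus GeneChips, where 2 were higher and 5 lower in testis, and 14 on the human GeneChips, where 3 were higher and 3 lower. Their median difference was -0.20 and -0.32. KCNMB1 and KCNMA1, the β1 and α subunits of the large calcium-activated potassium channel, were lower in testis at -5.93 and -1.72 on the rhesus and at -4.28 and -5.08 on the human GeneChips. KCNMB1 was at the floor in testis, cortex, pancreas and thymus, with means of 2.05 to 2.40 against 8.17 and 6.34 in fibroblasts. On the rhesus GeneChips KCNMA1 was also at the floor in testis, at a mean of 2.58 against 4.30 in fibroblasts and 5.32 in cortex. As the average over its probe sets its difference there was -0.66, without a call. PPP1R14A, the inhibitor of myosin phosphatase known as CPI-17, was lower at -1.37 and -1.51. ITPR1, a calcium release channel of the endoplasmic reticulum, was higher in testis at 2.52 and 2.71, and PDE5A, the enzyme that breaks down cGMP, at 1.93 and 2.41. ITPR1 was highest in cortex on both types, at 11.40 and 10.22.

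Of the 4 listed regulators of transcription, 2 were measured on the rhesus and 4 on the human GeneChips. MRTFB was higher in testis by 1.46 and 1.45, and its highest source was cortex. MYOCD, the gene of myocardin, read a mean of 4.08 in testis on the rhesus GeneChips and 2.16 to 2.24, at the floor, in the other 4 sources. Testis minus fibroblasts was 1.87 (limma adjusted p = 0.000295), a called difference that depends on the floor, whose highest control mean was 3.12. The brighter of the human probe sets of MYOCD stayed at the floor, with a difference of 0.18. SRF, read on the human GeneChips, had a difference of -0.61 with a limma adjusted p of 0.0461, without a call.

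Of the other actins and myosins 1 was higher and 1 lower in testis of 5 measured on the rhesus GeneChips, and 0 were higher and 1 lower of 5 on the human GeneChips. ACTB, the β-actin of all cells, had differences of -0.0033 on the rhesus and -0.42 on the human GeneChips, neither of them called, and MYH9, a non-muscle myosin heavy chain, was lower in testis at -1.88 and -2.46. MYH10, another non-muscle myosin heavy chain, was at -0.20 and -0.31 without a call. ACTG1, the γ-actin of all cells, had a difference of -0.85 on the rhesus GeneChips (limma adjusted p = 4.07e-05), under the size needed for a call, and of -1.21, past it, as the average over its probe sets. ACTC1, the actin of heart muscle, was higher in testis by 2.10 on the rhesus GeneChips, with a mean of 5.53, and at -0.23 without a call on the human ones. Of the striated muscle genes 2 of 10 were higher in testis on the rhesus GeneChips, TNNT1 by 1.41 and CKM by 1.71, a share near that of all genes. As the average over probe sets 0 of 10 were, and 0 of 12 were called on the human GeneChips, where 1 had a limma adjusted p below 0.05. TNNT1 and CKM were highest in cortex on the rhesus GeneChips, at 7.94 and 11.88.

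Markers of other cells moved with the same contrast. Of the measured Leydig and Sertoli cell markers 6 of 6 on the rhesus and 4 of 6 on the human GeneChips were higher in testis than in fibroblasts, and of the germ cell markers 3 of 4 and 4 of 6, while PRM1 and, on the human GeneChips, TNP1 were near the floor in testis. As the average over probe sets 5 of 6 Leydig and Sertoli cell markers were higher on the human GeneChips, with CYP17A1 then called at 2.86. The summed level of the Leydig and Sertoli list was 12.60 to 12.67 in testis and 5.09 to 5.11 in fibroblasts on the rhesus GeneChips, and 12.77 in testis and 5.42 to 5.44 in fibroblasts on the human GeneChips. The human sum was also 9.70 to 9.71 in cortex and 10.31 to 10.37 in pancreas. SOX9 alone read means of 12.30 in testis, 9.64 in cortex and 10.29 in pancreas there. The summed level of the germ cell list was 8.18 to 8.25 in testis against 5.46 to 5.53 in fibroblasts on the rhesus GeneChips, and 8.73 to 9.10 against 5.59 on the human ones. A sum over several genes at the floor lies above the floor itself. In fibroblasts all Leydig and Sertoli genes were at the floor on the rhesus GeneChips, with means of 2.13 to 2.74. On the human ones all but CYP17A1, at 3.71, were. The germ cell genes read 3.02 to 3.87 and 2.37 to 3.67 in fibroblasts, at or near the floor. Of the fibroblast matrix genes 7 of 7 were lower in testis on the rhesus GeneChips and 5 of 8 on the human GeneChips, and as the average over their probe sets 5 of 7 and 6 of 8, with summed levels of 14.87 to 14.90 against 16.37 to 16.43, and of 15.62 against 16.81 to 16.86. The part of these cell types in the levels of the contractile genes was not tested.

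Cells of vessel walls were read in the same way. Of the endothelial markers 4 of 7 on the rhesus and 2 of 8 on the human GeneChips were higher in testis and none was lower, with CDH5, the cadherin of endothelial junctions, at 2.54 and 2.65 and EMCN at 2.27 and 1.96. Fibroblasts were at the floor for CDH5 and EMCN on both types, so these differences depend on the floor. The summed level of the endothelial markers was 8.50 to 8.59 in testis and 6.28 to 6.30 in fibroblasts on the rhesus GeneChips, and 7.69 to 7.76 and 6.96 to 7.01 on the human GeneChips. It was higher again in pancreas, at 9.72 to 9.81 and 8.27 to 9.06, and in thymus, at 9.45 to 9.82 and 9.08 to 9.21. In thymus PECAM1 alone read means of 9.41 and 8.76, against 5.31 and 5.04 in testis. VWF, CDH5, EMCN and CLDN5 had means in thymus below those in testis on both types. KDR on both types, and TEK and ESAM on the human GeneChips, had means in thymus slightly above those in testis. On the rhesus GeneChips the TEK mean was lower in thymus. The endothelial sum was lower in testis than in pancreas on both array types. MYH11 on its brightest probe set was 5.47 and 5.78 higher in testis than in pancreas. On the rhesus probe set MmugDNA.33340.1.S1_at, testis minus pancreas was -1.84. Of the pericyte markers 1 of 3 was higher and 2 were lower in testis on the rhesus GeneChips, and 2 of 6 were higher on the human ones, with summed levels of 6.79 to 6.85 against 6.76 to 6.99 in fibroblasts, and of 8.50 to 8.57 against 8.11 to 8.16. NOTCH3 was higher in testis by 3.80 and 1.58, and RGS5, read on the human GeneChips, by 2.23. Fibroblasts were at the floor for NOTCH3 on the rhesus GeneChips. The highest source of NOTCH3 was thymus on both types, at means of 8.19 and 7.09. That of RGS5 was cortex, at 9.14, followed by pancreas at 8.42 and testis at 7.19. The pericyte markers CSPG4 and KCNJ8 were lower in testis on the rhesus GeneChips, at -1.31 and -2.77, with KCNJ8 at the floor in testis. None of the 4 neural and glial and 4 exocrine markers was called between testis and fibroblasts on either type, nor did any of these 8 have a limma adjusted p below 0.05. The part of vessels in the testis levels was not tested. Where a gene of these lists was read as the average over its probe sets, the calls of MYL6 ended on both types, those of KCNMA1, TNNT1, CKM, TEK, CSPG4, COL1A1 and DCN on the rhesus GeneChips, and those of MYL9, PPP1R12B, PDE5A, MRTFB, EMCN, NOTCH3, DCN and DNTT on the human ones. Only the average gave calls to PECAM1 at 1.21, PDLIM7 at -1.04 and ACTG1 at -1.21 on the rhesus GeneChips. On the human ones it did so for NEXN at -1.81, ROCK2 at -1.11, COL1A1 at -1.23, COL3A1 at -1.35 and CYP17A1 at 2.86.

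The genes nearest in pattern to MYH11 and TAGLN were read from the means of 5 sources, each gene centred on its own mean, over 11956 genes measured on both array types. The distance is the root mean square difference of the 5 centred means on the log2 scale, and the larger of the 2 array types ranked the genes. Nearest to MYH11 were INHA at 0.66, STK31 at 0.69, LHX9 at 0.79, COL4A6 at 0.82 and AGTR2 at 0.84, where the median distance of all genes was 3.02. INHA encodes the α subunit of inhibin, a hormone of Sertoli cells, and read a mean of 10.86 in testis and 4.91 in pancreas on the rhesus GeneChips. COL4A6 is a chain of basement membrane collagen and AGTR2 a receptor of angiotensin II.

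Nearest to TAGLN were LOXL2 at 0.55, COL12A1 at 0.56, FST at 0.57, CTSK at 0.60 and FAP at 0.68, where the median distance was 2.99. LOXL2 cross-links collagen, COL12A1 is a fibril-associated collagen, FST encodes follistatin, CTSK is a protease that cleaves collagen, and FAP is a cell surface protease of activated fibroblasts. These lists describe likeness over 5 points from the same arrays and carry no test.

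**Figure D4:**
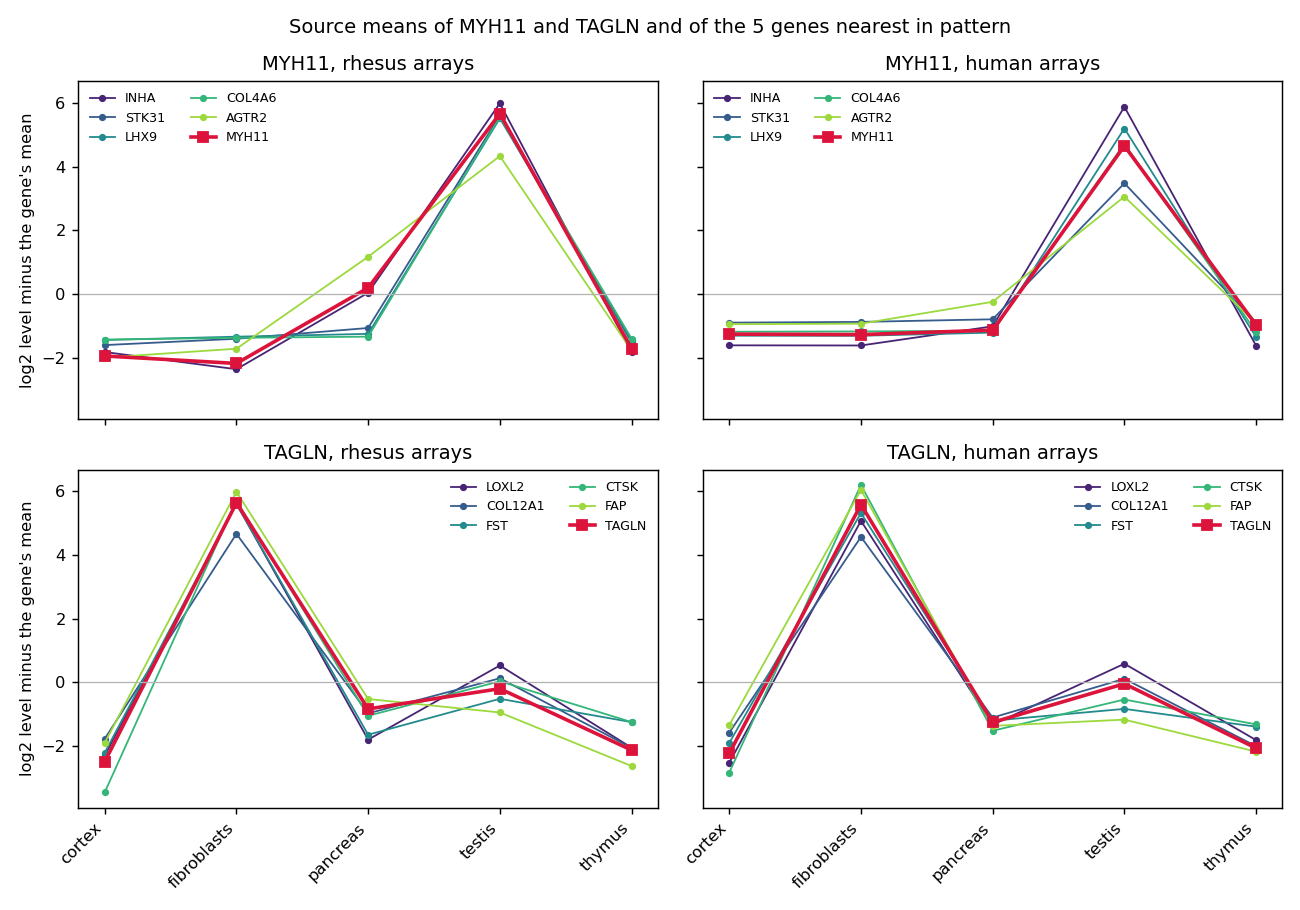
Mean level in the 5 sources (log2, each gene centred on its own mean) of MYH11 and TAGLN, as heavy lines, and of the 5 genes nearest to each, as thin lines, on the rhesus and the human GeneChips. The MYH11 group peaks in testis and the TAGLN group in fibroblasts on both array types.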

How the data were processed

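The values the authors deposited are on the log2 scale, 1 for each probe set on each array, in a table for each type of GeneChip. RMA, which corrects background, normalizes and summarises probes, is the tool listed by the submitters, with no version in the sources used here and no word on which arrays were run through it jointly. Sources come from the labels, the type of GeneChip from the table that holds a sample, and genes from the array annotation; 0 columns of per-sample values were left unused.

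Each type was fitted by itself with limma 3.58.1 under R 4.3.3 (lmFit, eBayes), on 52766 rhesus and 54613 human probe sets, the 10 arrays sharing 1 estimate of spread, with Benjamini-Hochberg adjustment per contrast. With 2 arrays per source and type, the number of arrays limits the precision. The script was tested on simulated data. Listed genes were read from the probe set brightest over all arrays, and a summed level is log2 of the sum of the linear values of these. Named were all members, at most 6 genes of another list called on both types, genes a result turned on, and the 5 genes nearest to MYH11 and TAGLN. MYL9, SRF, ACTB, ACTG1, MYH10, TEK, COL1A1, DCN, PPP1R12B, TNNT1, CKM, RGS5, CSPG4, KCNJ8 and CYP17A1 were named after their values were seen. So were PECAM1, VWF, KDR, CLDN5, ESAM, PDLIM7, NEXN, ROCK2, COL3A1 and CD3E. The members and lists were chosen with earlier results of these data known.

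Same-numbered arrays of different sources did not deviate together (r from -0.025 to 0.010 for rhesus and from -0.034 to 0.018 for human GeneChips, over 10 pairs of sources each), so the numbers were not taken to pair them. The alternatives were quantile normalization, array medians or spiked controls subtracted, dim probe sets left out, any size of difference allowed, testis and fibroblasts fitted alone, a spread that follows the level, a replicate block, a gene read as the average over its probe sets, and each array left out in turn. Probe, promoter and protein sequences were not analysed here.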

Additional observations from a re-analysis of the deposited data

How the results depend on the processing

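No called difference between testis and fibroblasts changed direction under any of the alternatives run, and all values are log2 differences of testis minus fibroblasts unless called counts. With the replicate block the counts higher, lower and of neighbouring pairs were 5, 10 and 28 on the rhesus and 7, 10 and 30 on the human GeneChips, as without it, and the block changed no call; the numbers do not pair the arrays. With no minimum difference 46 neighbouring pairs were called on the human GeneChips. Leaving out an array gave 4 to 5 higher, 10 to 10 lower and 26 to 29 neighbouring pairs on the rhesus GeneChips, and 7 to 7, 8 to 12 and 28 to 31 on the human GeneChips. The spiked controls read 0.69 higher in testis than in fibroblasts on the rhesus and 0.57 higher on the human GeneChips. Subtracting them moved each difference of testis minus fibroblasts down by these amounts. The array medians differed by 0.04 and -0.04, testis minus fibroblasts. On the human GeneChips, subtracting the spiked controls raised the count lower in testis to 14. ACTA2 was then at -1.45, CNN1 at -1.10 and CALD1 on 215198_s_at and 215199_at at -1.37 and -1.15. The remaining changes of sign were in differences that were not called. On the rhesus GeneChips ACTG2 on Mmu.4662.5.S1_at became -0.30 with quantile normalization, -0.033 with array medians and -0.68 with spiked controls, and ranged from -0.20 to 0.22 without single arrays; on MmugDNA.30998.1.S1_at it became -0.30 with spiked controls. Without single arrays CALD1 on MmugDNA.4165.1.S1_at ranged from -0.41 to 0.070 and MYH11 on MmugDNA.33340.1.S1_at from -0.26 to 0.20. On the human GeneChips, MYH11 on 1568760_at and 228134_at, ACTG2 on 241148_at and MYLK on 1563466_at became 0.023, 0.0011, 0.0025 and 0.0036 with quantile normalization and 0.021, 0.012, 0.013 and 0.0022 with array medians, where MYLK on 1568770_at became 0.0020. With spiked controls ACTA2 on 243140_at became -0.15, DES on 202222_s_at -0.54, SMTN on 1556030_at -0.53, and CALD1 on 243084_at and 214880_x_at -0.19 and -0.0013. Without single arrays CNN1 ranged from -1.09 to 0.027, LMOD1 on 211562_s_at from -0.27 to 0.0022, CALD1 on 243084_at from -0.037 to 0.80, ACTA2 on 243140_at from -0.012 to 0.86 and SMTN on 1556030_at from -0.016 to 0.099. The cause of these changes was not tested. Where a gene was read as the average over its probe sets, 36 of the 44 genes of other lists called on the rhesus GeneChips and 25 of the 34 on the human ones kept their call. Probe sets at or near the floor limit what these arrays show of SMTN, DES and ACTG2 in testis.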

Other observations

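DNTT, the enzyme that adds bases to antigen receptor joints in developing T cells, was highest in thymus, at means of 12.98 on the rhesus and 10.82 on the human GeneChips, and was called higher in testis than in fibroblasts by 4.60 and 2.49. Read as the average over its probe sets it differed by 3.51 and 0.77, the second without a call. Of the 4 listed T cell markers 2 of 2 measured on the rhesus and 2 of 4 on the human GeneChips were higher in testis. One human probe set, 214027_x_at, carries the symbols SUPT20H and DES together and was not counted as DES. Its means ran from 6.22 in fibroblasts to 7.57 in pancreas, above those of the 2 DES probe sets, and testis minus fibroblasts was 0.44 (limma adjusted p = 0.356).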
